A study of Mus musculus with 6 samples.

Results

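The 7 genes of endocannabinoid and adenosine signalling studied here were followed through gene-level read counts of 6 mouse brain libraries: Dagla, Daglb, Mgll, Faah, Cnr1, Adora1 and Adk. All 7 were found among the 55604 genes counted, and all 7 had enough reads to be tested. The libraries came from the brain of C57BL/6 mice, 3 after an intraperitoneal dose of 4-aminopyridine (4-AP) and 3 from controls, labelled NC. 4-AP, a blocker of voltage-gated potassium channels, served to induce status epilepticus, a seizure that does not end by itself. In both groups the total RNA was digested with RNase R, an exonuclease that removes linear RNA and spares circles. The labels give no dose, age, sex, brain region or time of sampling, and do not say whether controls received a vehicle injection or whether each library is a separate animal, so p-values measure only the spread between these libraries.

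Both systems hold back transmitter release when neurons are overactive. Diacylglycerol lipases in the postsynaptic cell make the endocannabinoid 2-arachidonoylglycerol, which travels back across the synapse to the presynaptic cannabinoid receptor CB1 and is broken down by monoacylglycerol lipase. Adenosine, formed from released ATP, acts on the A1 receptor, which like CB1 couples to Gi/o proteins, and is removed mainly in astrocytes by adenosine kinase. Each system is known as an endogenous limit on seizures, and the comparison of 4-AP with control brain asks whether the genes that make, sense and remove the signals differ after induced seizures.

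Total counts were 1507882 to 2721287 in the 4-AP libraries and 2355610 to 3409055 in the controls, so that 1 read was worth 0.259 to 0.731 CPM (counts scaled to library size). The counts add up circular and linear reads of a gene, which cannot be separated here. Whether RNase R digestion was equally complete in both groups was not tested, so a lower count need not mean lower expression of the gene. Genes of structured RNA (such as ribosomal and small nuclear RNA) and mitochondrial genes held 11.8%, 8.38% and 13.1% of counts in 4-AP replicates 1 to 3. They held 5.93%, 8.32% and 10.3% in control replicates 1 to 3. The most abundant locus, Lars2, was not among these genes. It took 12.4% to 21.4% of counts in the 4-AP libraries and 3.82% to 12.1% in the controls. Of 8 markers of forebrain excitatory neurons 3 were lower in the 4-AP libraries, and of 9 hypothalamic markers 3 were higher and 5 were not tested. Their values are given below. Control replicate 1 stood apart in striatal markers, whose summed level was 69.5 CPM there against 570 and 980 CPM in the other controls and 577 to 805 CPM in the 4-AP libraries.

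The A1 receptor gene Adora1 and the lipase gene Dagla had lower counts in the 4-AP libraries, at 60.0% and 57.6% of their control means. The monoacylglycerol lipase gene Mgll, at 66.5% of its control mean, narrowly missed the threshold, and the anandamide hydrolase gene Faah stood at 75.0%. Cnr1, Daglb and Adk had group means within 10% of each other and libraries that overlapped between groups. Of the 7 genes, 2 were lower and 0 higher with edgeR (quasi-likelihood test, Benjamini-Hochberg adjusted p below 0.05), against 0.509% lower and 0.334% higher of all 11388 tested genes. At an unadjusted p under 0.05, 4 were lower and 0 higher, against 7.57% lower and 6.29% higher of all tested genes. DESeq2 called 3 lower and 0 higher, against 3.03% lower and 2.24% higher of the 3661 genes to which it gave an adjusted p. Limma-voom called 2 lower and 0 higher, against 0.527% and 0.299% of all tested genes. With 1 library left out in turn, 0 or 1 of the 7 passed. In those fits 10 to 54 were lower and 16 to 105 higher of 11484 to 11983 tested genes. Scaling by total counts alone gave 3 lower of the 7, and 26 higher and 293 lower of all genes (0.228% and 2.57%) against 38 and 58. In 4 of the 7 all 3 4-AP libraries lay below all 3 controls, as in 10.4% of all tested genes, and in 0 of the 7 all lay above, as in 8.36%. The median log2 fold change of the 7 genes was -0.43, and that of all tested genes -0.008. Because the 7 genes were chosen with earlier results of these data known, the shares over all genes describe them and do not test them.

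**Figure D1:**
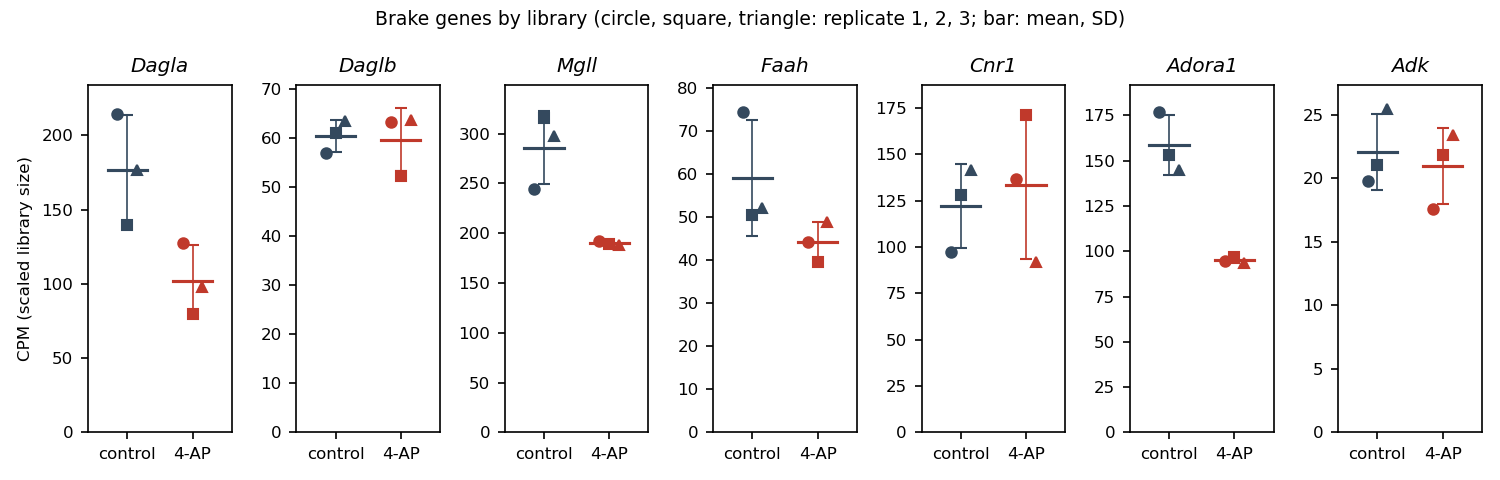
Level of each of the 7 genes in CPM (vertical axis, from 0) in the 3 control and 3 4-AP libraries; points are libraries, horizontal bars group means and error bars SDs. The 4-AP points of Dagla, Mgll, Faah and Adora1 lie below all control points, and those of Daglb, Cnr1 and Adk overlap them.

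The upstream windows of 4 of these genes are shown for comparison: 3 whose groups did not overlap, and Daglb, whose groups overlapped. They are RefSeq windows on build GRCm38.p6, from 250 bases before to 50 bases after an annotated start, written 5′ to 3′. Capitals mark matches on either strand to 4 short motifs. One is the GC box GGGCGG, bound by Sp1-type factors. The next is TGACG, part of the cAMP response element. The others are the AP-1 element TGANTCA and the TATA box TATAAA.
Adora1 (chr1:134235408-134235707, minus strand): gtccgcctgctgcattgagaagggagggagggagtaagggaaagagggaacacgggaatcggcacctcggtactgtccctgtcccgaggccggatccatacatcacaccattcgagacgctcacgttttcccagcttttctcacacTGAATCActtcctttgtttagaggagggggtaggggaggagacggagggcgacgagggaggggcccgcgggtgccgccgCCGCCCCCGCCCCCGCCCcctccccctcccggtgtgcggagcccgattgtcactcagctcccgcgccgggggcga
Mgll (chr6:88724162-88724461, plus strand): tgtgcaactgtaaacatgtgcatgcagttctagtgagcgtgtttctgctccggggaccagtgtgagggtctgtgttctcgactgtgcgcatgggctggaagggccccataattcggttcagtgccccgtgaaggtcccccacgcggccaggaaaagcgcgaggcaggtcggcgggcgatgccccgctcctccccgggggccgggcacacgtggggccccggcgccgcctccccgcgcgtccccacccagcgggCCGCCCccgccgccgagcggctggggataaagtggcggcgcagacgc
Faah (chr4:116017875-116018174, minus strand): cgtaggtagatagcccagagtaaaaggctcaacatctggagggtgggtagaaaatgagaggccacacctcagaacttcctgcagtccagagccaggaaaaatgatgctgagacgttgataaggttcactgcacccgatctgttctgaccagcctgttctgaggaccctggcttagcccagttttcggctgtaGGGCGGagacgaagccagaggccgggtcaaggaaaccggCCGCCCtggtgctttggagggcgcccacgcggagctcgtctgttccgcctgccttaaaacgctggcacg
Daglb (chr5:143464243-143464542, plus strand): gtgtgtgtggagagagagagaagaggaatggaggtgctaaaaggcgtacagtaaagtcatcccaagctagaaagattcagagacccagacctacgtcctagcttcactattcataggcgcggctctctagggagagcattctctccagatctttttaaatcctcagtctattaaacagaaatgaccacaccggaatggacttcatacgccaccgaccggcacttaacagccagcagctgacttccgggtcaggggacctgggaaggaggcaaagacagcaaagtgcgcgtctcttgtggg
The GC box was matched 3 times in this Adora1 window, 1 time in that of Mgll, 2 times in that of Faah and 0 times in that of Daglb. A second Adora1 window, not shown, held 0 GC boxes and 0 AP-1 matches. A second Mgll window, not shown, held 1 GC box and 1 TGACG match. The GC box was matched in 35.7% of all 32851 windows. In genes with overlapping groups it was matched 4 times in each of 2 Adk windows and 5 times in 1 Cnr1 window. The other 2 Cnr1 windows held 0. The Adora1 window shown held 1 AP-1 match, present in 7.81% of all windows. The full cAMP response element TGACGTCA was matched in 0 of the 11 windows of the 6 genes with an entry, and in 1.79% of all windows. TGACG was matched in 20.8%, TATAAA in 13.6% and the E box CANNTG in 72.3% of all windows. Some matches overlap one another, and a match is a run of letters, not a measured binding site. Dagla had no entry.

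Dagla encodes the diacylglycerol lipase alpha that supplies most of the 2-arachidonoylglycerol of adult synapses. The gene lies on chromosome 19 (10245265 to 10304877, minus strand, mm10). It had 128, 79.7 and 97.9 CPM in 4-AP replicates 1 to 3 and 214, 140 and 176 CPM in control replicates 1 to 3. The highest 4-AP library lay below the lowest control, although the gap between them was small. The group means were 102 ± 24.3 and 177 ± 37.1 CPM (SD, n = 3 each), a change of -0.80 on the log2 scale (SE 0.19; 95% interval -1.20 to -0.41; adjusted p = 0.0436 by edgeR). The call depended on single libraries: with each left out in turn it passed 2 of 6 times, at -1.003 without 4-AP replicate 1 and -0.93 without control replicate 2. It was lost at -0.62 without 4-AP replicate 2, -0.78 without 4-AP replicate 3, -0.63 without control replicate 1 and -0.81 without control replicate 3. It was also lost with relative log expression scaling (log2 fold change -0.79, adjusted p = 0.0537 by edgeR).

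Daglb encodes the second diacylglycerol lipase, prominent in microglia and other immune cells. On chromosome 5 (143464584 to 143505942, plus strand), it had 63.2, 52.2 and 63.6 CPM in the 4-AP libraries and 56.9, 60.9 and 63.4 CPM in the controls. The 2 groups covered nearly the same range. The log2 fold change was -0.03 (SE 0.18; 95% interval -0.40 to 0.35; adjusted p = 0.974 by edgeR), so changes of up to 1.27-fold upward or to 0.757 of control lay inside the interval. Of its exonic bases, 24.1% are shared with Rac1 on the opposite strand; Rac1 was at a log2 fold change of 0.01, and with no stated strand setting reads of this stretch cannot be assigned.

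Within a library, the count ratio of the 2 lipase genes does not depend on scaling. Dagla reads were 2.02, 1.53 and 1.54 times Daglb reads in the 4-AP libraries and 3.76, 2.29 and 2.78 times in the controls. Every 4-AP ratio lay below every control ratio. The mean difference was -0.78 on the log2 scale, with p = 0.1 in an exact permutation test (two-sided), the smallest that 3 against 3 libraries allow. This was 1 of 9 ratios between the 7 genes, chosen after their values were seen, and the adjusted p over the 9 was 0.15. The 9 ratios use the same counts as the CPM of each gene and are not separate evidence.

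Mgll encodes monoacylglycerol lipase, the main enzyme that ends the 2-arachidonoylglycerol signal. The gene lies on chromosome 6 (88724412 to 88828360, plus strand) and had the most reads of the 7 genes, 3743 over the 6 libraries. It had 192, 189 and 189 CPM in the 4-AP libraries and 245, 315 and 298 CPM in the controls. The 4-AP libraries were almost equal, and all lay below the controls. The means were 190 ± 2.04 and 286 ± 36.9 CPM (SD, n = 3 each), with a change of -0.59 on the log2 scale (SE 0.14; 95% interval -0.89 to -0.29; adjusted p = 0.0548 by edgeR), which did not pass. It passed without control replicate 1 (-0.68; adjusted p = 0.0219 by edgeR), the library with the lowest control level, and with DESeq2 (adjusted p = 0.0167). It missed the threshold in the other 5 leave-one-out fits, with log2 fold changes of -0.60 to -0.49.

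The ratio of each lipase gene to Mgll set synthesis against breakdown. Daglb reads were 0.329, 0.276 and 0.337 times Mgll reads in the 4-AP libraries and 0.233, 0.193 and 0.213 times in the controls, higher in all 3 4-AP libraries than in any control (log2 difference 0.56, p = 0.1 by the same exact test, adjusted p = 0.15). Dagla reads were 0.664, 0.422 and 0.519 times Mgll reads in the 4-AP libraries and 0.875, 0.443 and 0.592 times in the controls. That ratio overlapped between groups (log2 difference -0.22, exact permutation p = 0.6, adjusted p = 0.675).

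Faah encodes fatty acid amide hydrolase, which breaks down anandamide, the other main endocannabinoid. On chromosome 4 (115967145 to 116017926, minus strand), it had 44.3, 39.7 and 49.0 CPM in the 4-AP libraries and 74.5, 50.6 and 52.2 CPM in the controls. The groups did not overlap, but the upper 4-AP library and the lower 2 controls lay close together. The log2 fold change was -0.43 (SE 0.20; 95% interval -0.85 to -0.002; adjusted p = 0.357 by edgeR) and did not pass. Without control replicate 1 it was -0.22.

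Cnr1 encodes CB1, carried at high density by cholecystokinin-positive interneurons and at lower density by excitatory terminals. On chromosome 4 (33924593 to 33948831, plus strand), it had 137, 171 and 92.1 CPM in the 4-AP libraries and 97.1, 128 and 141 CPM in the controls. The 4-AP libraries held both the highest and the lowest value of the 6, so the groups overlapped. The means were 133 ± 39.6 and 122 ± 22.8 CPM (SD, n = 3 each). The log2 change of 0.14 (SE 0.20; 95% interval -0.28 to 0.56; adjusted p = 0.831 by edgeR) turned to -0.06 without 4-AP replicate 2 and to -0.05 with scaling by total counts alone. The 4 listed markers of cholecystokinin basket cells, Cnr1 among them, had summed levels of 182 to 233 CPM in the 4-AP libraries and 161 to 232 CPM in the controls, and their part in the result was not tested.

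Relative to Mgll and Adora1, Cnr1 reads were more numerous in each 4-AP library than in any control. They were 0.712, 0.905 and 0.488 times Mgll reads in the 4-AP libraries and 0.397, 0.406 and 0.475 times in the controls. They were 1.45, 1.77 and 0.984 times Adora1 reads in the 4-AP libraries and 0.549, 0.836 and 0.975 times in the controls. In both ratios the groups did not overlap, by a narrow margin between 4-AP replicate 3 and control replicate 3. The log2 differences were 0.68 and 0.83, each with p = 0.1 by the exact permutation test and an adjusted p of 0.15. Mgll and Adora1 were themselves lower in CPM in every 4-AP library than in any control. The ratios therefore restate those differences and are not a separate result on Cnr1.

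Adora1 encodes the A1 receptor, which lowers glutamate release and opens potassium channels when adenosine binds. The gene lies on chromosome 1 (134199223 to 134235431, minus strand). It had 94.5, 96.8 and 93.6 CPM in the 4-AP libraries and 177, 153 and 145 CPM in the controls. The 4-AP libraries were nearly equal and far below every control. The means were 94.98 ± 1.68 and 158 ± 16.6 CPM (SD, n = 3 each), a change of -0.74 on the log2 scale (SE 0.15; 95% interval -1.06 to -0.42; adjusted p = 0.0227 by edgeR). It passed in all 8 alternatives that kept the 6 libraries and in 1 of the 6 leave-one-out fits, without 4-AP replicate 2 (-0.73, adjusted p = 0.0413 by edgeR). In the other 5 fits the log2 fold change was -0.80 to -0.64 and the adjusted p 0.0538 to 0.120: -0.74 without 4-AP replicate 1, -0.73 without 4-AP replicate 3, -0.64 without control replicate 1, -0.74 without control replicate 2 and -0.80 without control replicate 3. Of its exonic bases, 20.1% are shared with Mybph on the opposite strand, which had 3 reads in all.

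Adk encodes adenosine kinase, which turns adenosine into AMP. On chromosome 14 (21052574 to 21448569, plus strand), it had the fewest reads of the 7 genes, 321 over the 6 libraries. It had 17.6, 21.8 and 23.4 CPM in the 4-AP libraries and 19.8, 21.0 and 25.4 CPM in the controls, overlapping throughout. The log2 fold change was -0.07 (SE 0.24; adjusted p = 0.949 by edgeR), and its 95% interval of -0.57 to 0.44 leaves room for a change to 0.673 of control or up to 1.36-fold. Adora1 reads were 5.37, 4.44 and 4.00 times Adk reads in the 4-AP libraries and 8.94, 7.30 and 5.70 times in the controls. All 4-AP ratios lay below all control ratios (log2 difference -0.65, exact permutation p = 0.1, adjusted p = 0.15). The 10 astrocyte markers, all tested, had summed levels of 4251 to 4644 CPM in the 4-AP libraries and 4822 to 5042 CPM in the controls. Of the 10, 7 had log2 fold changes above 0 and 3 below, with a median of 0.07, and none was at 0. The 1 that passed the edgeR test, the glutamate transporter gene Slc1a2, was lower, at 1132 ± 94.4 CPM in 4-AP and 1748 ± 40.4 CPM in control libraries (SD, n = 3 each).

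**Figure D2:**
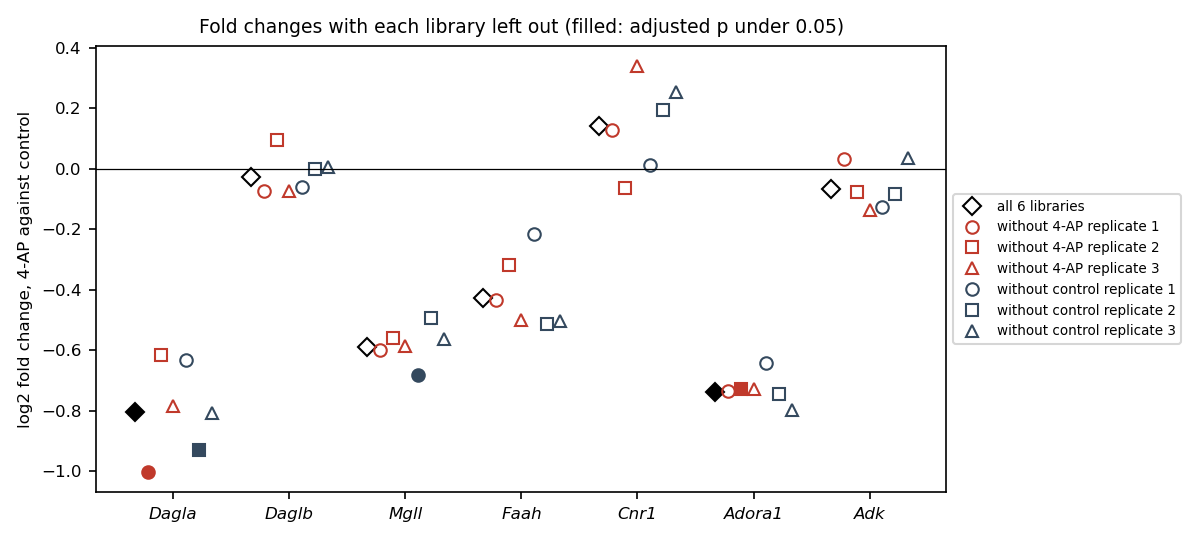
Log2 fold change of each of the 7 genes (vertical axis) with all 6 libraries and with each library left out; symbols name the library left out, and filled symbols have an adjusted p under 0.05. Dagla, Mgll, Faah and Adora1 stay below 0 in every fit, while Cnr1, Daglb and Adk cross 0.

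Divided by annotated exon length, the control levels ran in the order Mgll (56.3 ± 7.26 CPM per kb), Dagla (30.7 ± 6.46), Adora1 (27.4 ± 2.86), Cnr1 (18.97 ± 3.53), Faah (7.54 ± 1.71), Daglb (6.31 ± 0.342) and Adk (2.59 ± 0.348; SD, n = 3 each). Dagla and Adora1, and Faah and Daglb, did not differ beyond their spread. In 4-AP brain the order was Mgll (37.4 ± 0.402 CPM per kb), Cnr1 (20.7 ± 6.15), Dagla (17.7 ± 4.22), Adora1 (16.4 ± 0.291), Daglb (6.24 ± 0.679), Faah (5.66 ± 0.594) and Adk (2.45 ± 0.351). Cnr1, Dagla and Adora1 lay within their spread of each other there, as did Daglb and Faah. These levels rest on the union of annotated exons, which need not be the exons of the RNase R-resistant RNA.

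Markers of forebrain glutamatergic neurons had log2 fold changes below 0, as did 6 of the 7 genes, all but Cnr1, and 51.0% of all tested genes. All 8 markers were tested, all 8 had log2 fold changes below 0 (median -0.79), and none was at 0. Their summed level was 1271 to 1858 CPM in the 4-AP libraries and 2371 to 2439 CPM in the controls. Of the 8, 3 (Slc17a7, Nrgn and Neurod2) were lower by the edgeR test. Most of the sum came from Slc17a7 and Camk2a, with control means of 964 and 984 CPM, and Camk2a was not called. Adora1 reads were 5.09%, 7.62% and 7.21% of the summed marker reads in the 4-AP libraries, against 7.34%, 6.46% and 5.95% in the controls. Relative to these markers the Adora1 groups therefore overlapped, with a log2 difference of -0.005 (exact permutation p = 1). Dagla reads were 6.88%, 6.27% and 7.55% of the marker reads in 4-AP and 8.88%, 5.90% and 7.23% in control libraries, again overlapping (log2 difference -0.07, exact permutation p = 0.8). For Mgll the log2 difference was 0.15 (exact permutation p = 0.5) and for Faah 0.33 (exact permutation p = 0.2). With so few libraries these tests cannot show that a difference is absent. Whether the lower counts of these genes follow from the markers was not tested.

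Daglb and Cnr1, whose CPM overlapped between the groups, did not overlap relative to the same markers. Daglb reads were 3.40%, 4.11% and 4.90% of the marker reads in the 4-AP libraries, against 2.36%, 2.57% and 2.60% in the controls. Cnr1 reads were 7.37%, 13.5% and 7.09% of them in the 4-AP libraries, against 4.03%, 5.40% and 5.80% in the controls. All 4-AP values lay above all control values (log2 differences 0.71 and 0.83, exact permutation p = 0.1 for each). The marker sum was itself lower in the 4-AP libraries, so a gene with similar CPM in both groups is higher relative to it. These ratios therefore restate the lower marker counts and are not a separate result on Daglb or Cnr1. The 7 ratios to markers were also chosen after values were seen, and 0.35 was the lowest adjusted p over them. In bulk RNA, fewer cells of a type, less RNA per cell and a difference in the tissue taken cannot be told apart. None of these was tested.

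**Figure D3:**
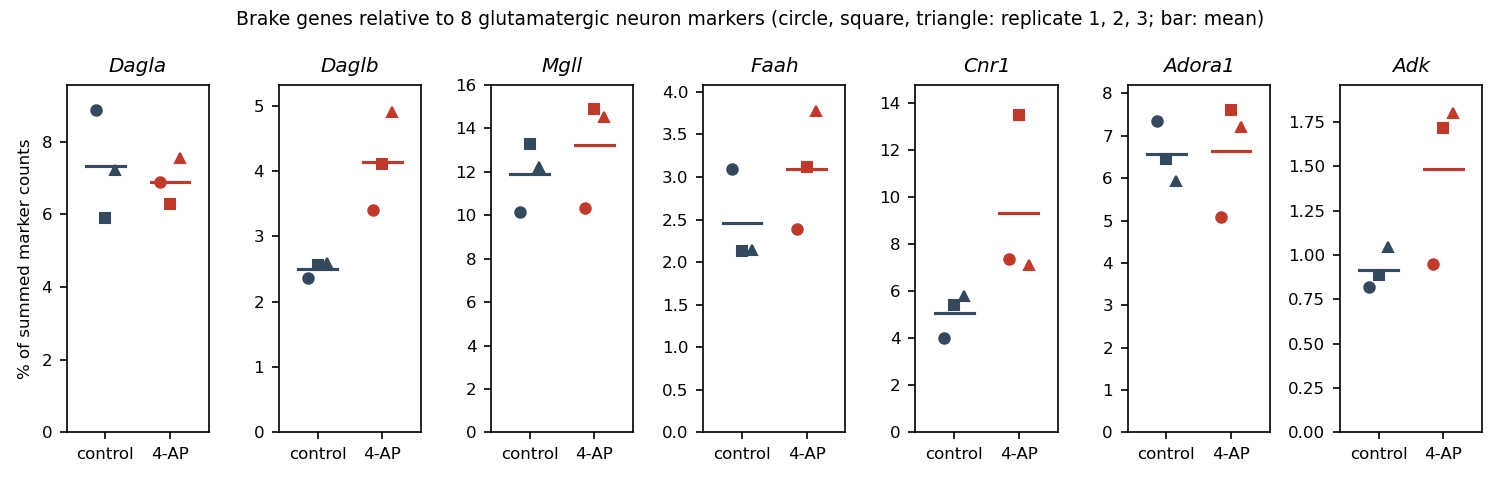
Reads of each of the 7 genes as a percentage of the summed reads of 8 glutamatergic neuron markers in the same library (vertical axis, from 0), with group means as bars. Adora1, Dagla, Mgll and Faah overlap between groups, whereas all 4-AP points of Cnr1 and Daglb lie above the controls.

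Hypothalamic neuron markers, of which 4 of 9 were tested and Ghrh was at 0 counts, summed to 45.0 to 69.4 CPM in the 4-AP libraries and 0.893 to 16.7 CPM in the controls. The hormone genes Oxt (5.22 to 8.04 CPM against 0 in every control), Avp (at least 10.4 CPM in each 4-AP library against 0 to 0.778 CPM) and Trh (18.6 to 22.8 against 0.446 to 2.59 CPM) were higher by the edgeR test. Pomc was not called and overlapped, at 1.07 to 6.52 against 0.446 to 14.5 CPM, and gave most of the highest control sum, that of control replicate 1. The subcortical glutamate transporter gene Slc17a6 was at 29.3 to 54.1 CPM against 5.19 to 38.0 CPM. Microglia markers, of which 6 of 7 were tested, summed to 442 to 545 CPM in the 4-AP libraries and 370 to 433 CPM in the controls. Of the 6, 3 were above 0 and 3 below, with a median log2 fold change of 0.12, and none passed; Cx3cr1, at 374 ± 40.9 against 252 ± 26.2 CPM (SD, n = 3 each), had most of the reads. The summed levels of the other lists overlapped between groups: 329 to 452 against 322 to 442 CPM for interneurons (8 of 8 tested), 2886 to 3915 against 2478 to 3830 for oligodendrocytes (7 of 7), 70.9 to 113 against 69.2 to 102 for endothelial cells (5 of 5) and 13.7 to 71.5 against 7.78 to 17.0 for choroid plexus and ependyma (2 of 5). The part of these differences in the results on the 7 genes was not tested.

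The wider pathway was read from 8 lists holding 53 further genes, of which 40 had enough reads to test. None of the 40 passed edgeR's test in either direction, against 0.334% higher and 0.509% lower of all tested genes. At an unadjusted p under 0.05 by edgeR, 2 were higher and 4 lower, against 6.29% higher and 7.57% lower of all tested genes. Limma-voom called 0, and DESeq2 called 0 of the 18 to which it gave an adjusted p. The median log2 fold change of the 40 was 0.08, with 26 above 0 and 14 below. Of all tested genes, 51.0% were below 0. The 13 untested genes had 0 to 41 reads over the 6 libraries. Among them were the cannabinoid receptor gene Cnr2, with 5 reads, the anandamide-sensitive channel gene Trpv1, with 1, and the adenosine receptor gene Adora3, with 0. A count of 3 reads corresponds to 0.778 to 2.19 CPM per library, the limit that a count of 0 allows, for counting error only.

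**Figure D4:**
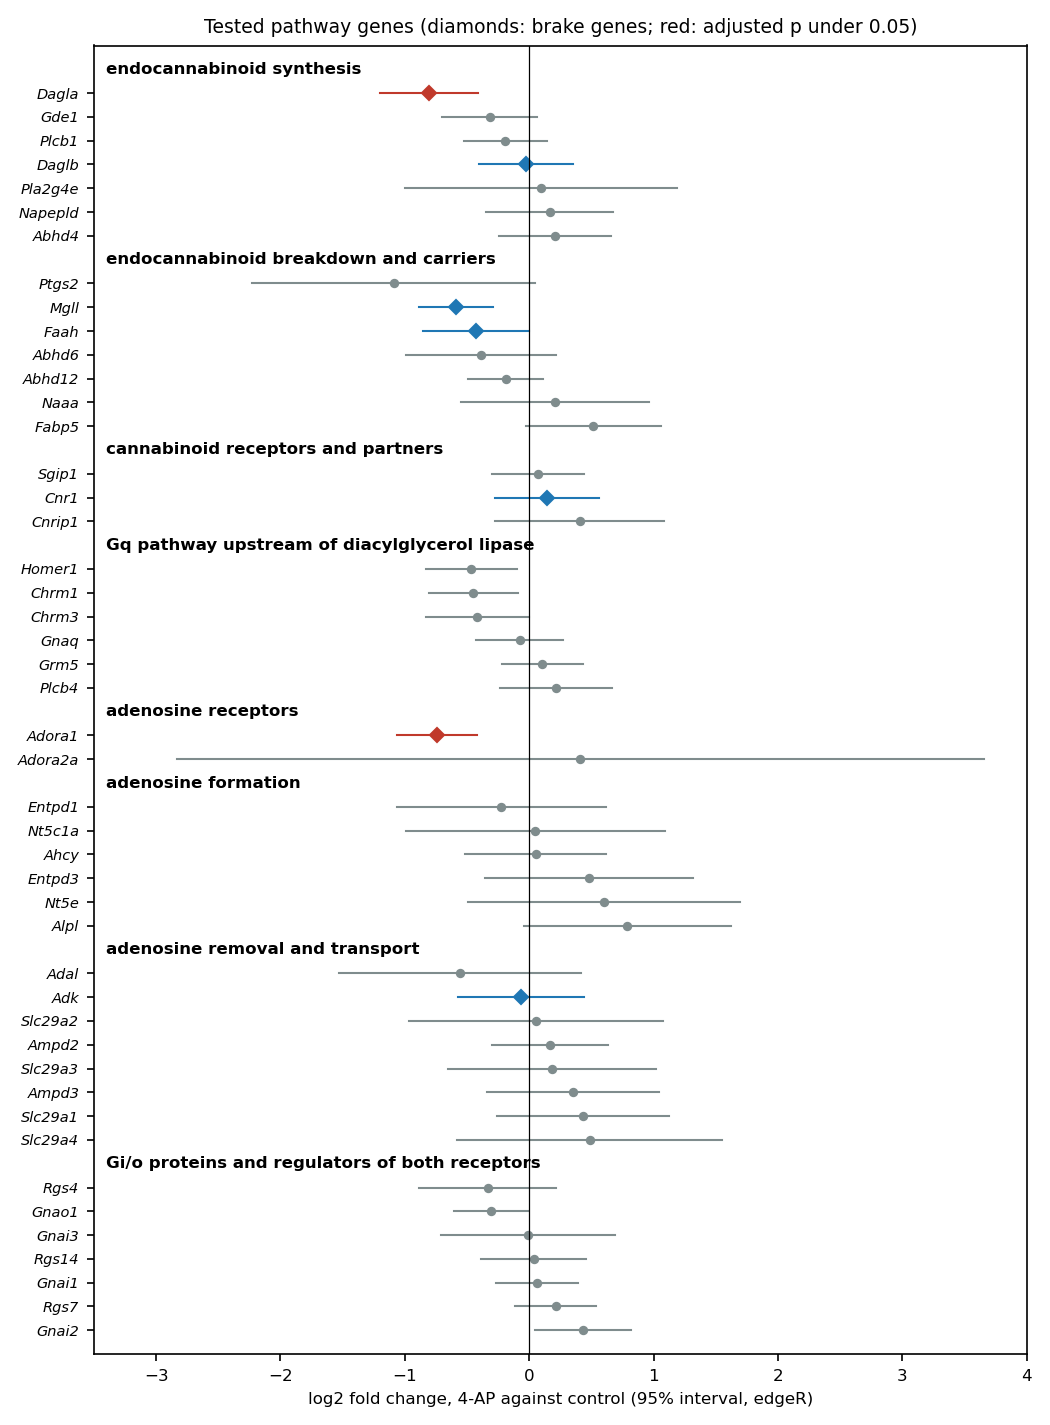
Log2 fold change of 4-AP against control (horizontal axis) for the 7 genes (diamonds) and other tested pathway genes (circles), grouped by role, with 95% intervals from edgeR. Dagla and Adora1, in red, are the genes with an adjusted p under 0.05, and the interval of Adora2a is the widest.

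Upstream of the lipases, Gq-coupled receptors and phospholipase C supply diacylglycerol. All 8 genes of that list were tested, 5 below 0 and 3 above, with a median log2 fold change of -0.13. The postsynaptic scaffold gene Homer1 had the smallest p below 0, at -0.47 (SE 0.17; adjusted p = 0.216 by edgeR).

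Of the other synthesis genes, Gde1, a phosphodiesterase of an alternative anandamide route, was at -0.32 and Abhd4, a lipase of the same route, at 0.21; the 7 genes of this list, Dagla and Daglb included, had a median of -0.03. Breakdown and carrier genes, Mgll and Faah included, had a median of -0.39 over 7 tested of 8. Ptgs2, the cyclooxygenase that also oxidises endocannabinoids, was at 4.56, 2.14 and 1.46 CPM in the 4-AP libraries and 4.71, 7.003 and 5.36 CPM in the controls (log2 fold change -1.09, SE 0.55; adjusted p = 0.389 by edgeR). Its 4-AP libraries lay below the controls, but it had 69 reads in all. The fatty acid carrier gene Fabp5 was at 0.51 (SE 0.26). Of the receptor list, 3 of 6 genes were tested, Cnr1 included. All 3 were above 0, Cnr1 not in every fit, and the CB1-binding protein gene Cnrip1 was at 0.41 (SE 0.33).

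Adora2a, a stimulatory receptor gene typical of striatal neurons, was the other adenosine receptor gene with enough reads. It had 60.0, 103 and 49.0 CPM in the 4-AP libraries and 1.26, 56.8 and 108 CPM in the controls. Control replicate 1, the library low in striatal markers, was far below all others, and the log2 change of 0.41 (SE 1.20; adjusted p = 0.935 by edgeR) turned to -0.16 without it. Of the adenosine-forming enzymes, 6 of 7 were tested with a median of 0.27; the ectophosphatase gene Alpl was at 0.79 (SE 0.40; adjusted p = 0.401 by edgeR) and the ectonucleotidase gene Entpd1 at -0.22 (SE 0.40). Of 14 removal and transport genes, Adk included, 8 were tested, with a median of 0.17. The nucleoside transporter gene Slc29a1 was at 0.43 (SE 0.33) and the adenosine deaminase-like gene Adal at -0.55 (SE 0.47).

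Among the Gi/o proteins and their regulators, through which both receptors act, all 7 were tested and the median was 0.04. Gnao1, the main Go alpha subunit of brain, was at 175, 170 and 171 CPM in the 4-AP libraries and 236, 193 and 208 CPM in the controls. Its groups did not overlap, and the log2 change of -0.30 (SE 0.14; adjusted p = 0.348 by edgeR) did not pass. Gnai2 was at 0.43 (SE 0.18; adjusted p = 0.281 by edgeR).

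Across the 6 libraries, the pattern of Adora1 was most like those of Mical2, an actin-oxidising enzyme gene (Pearson r = 0.997 of log2 CPM), and Cyfip2, a regulator of actin assembly (r = 0.994). Both were themselves lower in the 4-AP libraries, at -0.94 (adjusted p = 0.00349) and -0.66 (adjusted p = 0.0210 by edgeR). The pattern of Dagla was most like those of the transcription factor genes Tcf4 (r = 0.995; log2 change -0.44, adjusted p = 0.184) and Klf13 (r = 0.993; -0.39, adjusted p = 0.233 by edgeR), neither of which passed. These top values were picked from 7204 genes over only 6 libraries, and they include the difference between the groups. At the lower limit of r = 0.9, 216 genes exceeded it with Adora1 and 275 with Dagla. Among the 7 genes, Adora1 and Dagla had r = 0.857, Adora1 and Mgll 0.837, Adora1 and Faah 0.811, and Adora1 and Cnr1 -0.241, all from the same 6 libraries and scaled depths.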

How the data were processed

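Per the file headers and the labels, each of 6 libraries has a deposited table of read counts, whole numbers per Ensembl gene. STAR 2.5.3a, featureCounts and mm10 are named in the submitters' processing notes; annotation release, strand setting and multi-mapping rule: not given in the sources used here. Identifiers were matched without version to GENCODE M21 on the same assembly (54809 of 55604; the others held 0.00715% of counts), which also gave 1-based coordinates and exon lengths. Libraries were compared pairwise, and none agreed within sampling noise (lowest chi-square per degree of freedom 7.79, between 4-AP replicate 2 and control replicate 3). By Pearson r of log2 CPM, 4-AP replicate 2 was at 0.953 with control replicate 2, and at 0.948 and 0.940 with 4-AP replicates 1 and 3. Among the controls r was 0.954 to 0.965.

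Genes passing filterByExpr (minimum count 10, minimum total 15) were tested with edgeR 4.0.16 after trimmed mean of M-values scaling in R 4.3.3 (quasi-likelihood, robust, group as the only term), with p adjusted over all 11388 genes and a threshold of 0.05. Standard errors came from the fold change and F. The procedure was tested on simulated data. CPM are counts per scaled library size. Ratios of counts within a library were compared by two-sided exact permutation tests. Named genes were the 7 genes, any other pathway gene passing, and per list the gene of smallest p in each direction; Cnr2, Trpv1, Adora3, Lars2, Mybph, Rac1 and the marker genes were named outside this rule, after their values were seen. A gene that the rule names is not reported here. Likeness used log2 CPM (prior count 2) of genes with a mean of at least 4.

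The 7 genes and the lists were chosen with earlier results of these data known. Alternatives were relative log expression scaling, total counts, DESeq2 1.42.0, limma-voom (limma 3.58.1), no filter and a CPM above 1 in 3 libraries. Others were structured and mitochondrial RNA genes left out (with Lars2 kept), a replicate block and each library left out.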

Additional observations from a re-analysis of the deposited data

How the results depend on the processing

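All 7 genes kept their direction in the alternatives that kept the 6 libraries, except Cnr1, at -0.047 with total counts alone, a scaling that moved the median of all genes to -0.22; Abhd4 also reversed there (-0.0035). DESeq2 gave no adjusted p for Adk. Dagla lost its call with relative log expression scaling (-0.79), which left 1 of the 7 genes lower. Mgll gained a call with total counts (-0.80), DESeq2 (-0.57), no filter (-0.62) and a CPM above 1 in 3 libraries (-0.60). Counts over all genes moved from 38 higher and 58 lower to 26 and 293 with total counts, 82 and 111 with DESeq2, and 131 and 197 with no filter. With each library left out, they ran from 16 to 105 higher and from 10 to 54 lower, and the number of the 7 genes called lower ran from 0 to 1. In these fits log2 fold changes ran from -1.003 to -0.62 for Dagla, -0.80 to -0.64 for Adora1, -0.68 to -0.49 for Mgll, -0.51 to -0.22 for Faah, -0.064 to 0.34 for Cnr1, -0.075 to 0.097 for Daglb and -0.14 to 0.036 for Adk. Adora2a ran from -0.16 to 1.27. These fits have fewer libraries, and the cause of each lost call was not tested.

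The submitters' design text calls the samples paired, but no label says what a pair shares. Same-numbered libraries did not deviate together in every pair: the correlation of their deviations from the group means was -0.002, 0.113 and 0.025 for numbers 1 to 3, and not every library correlated best with its own number. With the replicate number as a block, 112 genes were higher and 153 lower, and Mgll was called (-0.58, adjusted p = 0.0264 by edgeR). Depth limits the genes with few reads, above all Adk, Ptgs2 and the 13 untested pathway genes.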
